A study of Mus musculus with 6 samples.

Results

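Immune checkpoint genes, the regulatory T cell factor gene Foxp3 and the tryptophan-degrading enzyme gene Ido1 were followed in the liver of female BALB/c mice, 6-8 weeks old, that carried metastases of the triple-negative mammary carcinoma line 4T1. The members are 10 genes chosen by symbol, Pdcd1, Cd274, Pdcd1lg2, Ctla4, Lag3, Havcr2, Tigit, Icos, Foxp3 and Ido1, and all 10 were found among the 24167 genes of the count table. In the shZdhhc17 metastases the injected 4T1 cells expressed a short hairpin RNA targeting the palmitoyltransferase gene Zdhhc17, and in the shSCR metastases they carried a scrambled hairpin. Both hairpins were delivered by lentivirus, with puromycin selection and no clone named in the labels. In both groups 500000 cells were injected hydrodynamically into the tail vein, and the metastases were taken by microdissection on day 10. Each group has 3 libraries of poly(A)-selected RNA. T cells, macrophages and liver cells come from the host and carry no hairpin, so the silencing concerns the injected cancer cells. Whether each library is a separate mouse is not stated outright. The p-values therefore rest only on the spread between libraries, which may be partly technical and may differ from that between mice.

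T cells carry checkpoint receptors that dampen their activation once a ligand is bound. PD-1 (Pdcd1) binds PD-L1 (Cd274) and PD-L2 (Pdcd1lg2), CTLA-4 competes with CD28 for the same costimulatory ligands, and LAG-3, TIM-3 (Havcr2) and TIGIT are further inhibitory receptors, while ICOS is a costimulatory receptor. Foxp3 specifies regulatory T cells, which also carry CTLA-4, ICOS and TIGIT. Interferon gamma from T and natural killer cells is a known inducer of Cd274 and Ido1 in tumour and myeloid cells, and Ido1 turns tryptophan into kynurenine.

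In the mouse genome Cd274 and Pdcd1lg2 are neighbouring coding genes on chromosome 19, and Ctla4 and Icos are neighbours on chromosome 1. RefSeq promoter windows of build GRCm38.p6, 250 bases before to 50 bases after a gene start, were given for 7 of the members in 8 windows. The windows of the 2 PD-1 ligand genes and one of Foxp3 are shown as examples of matches to interferon-related letters. Capitals mark the half-site AANNGAAA of interferon regulatory factors in the first 2 sequences and the gamma-activated site TTCNNNGAA in the third.
Cd274, chr19:29367188-29367487, plus strand: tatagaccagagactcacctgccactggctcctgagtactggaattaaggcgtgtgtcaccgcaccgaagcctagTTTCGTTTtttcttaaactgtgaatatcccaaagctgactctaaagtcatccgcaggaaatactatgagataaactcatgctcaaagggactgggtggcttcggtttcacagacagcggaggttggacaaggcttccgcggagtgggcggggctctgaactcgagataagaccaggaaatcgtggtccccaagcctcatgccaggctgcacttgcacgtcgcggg
Pdcd1lg2, chr19:29410669-29410968, plus strand: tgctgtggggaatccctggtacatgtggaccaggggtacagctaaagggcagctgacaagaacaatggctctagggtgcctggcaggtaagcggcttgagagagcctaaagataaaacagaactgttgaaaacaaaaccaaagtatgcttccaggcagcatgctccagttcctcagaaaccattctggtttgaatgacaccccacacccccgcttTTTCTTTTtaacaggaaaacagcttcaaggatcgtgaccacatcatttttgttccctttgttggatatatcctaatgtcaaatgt
Foxp3, chrX:7580233-7580532, plus strand: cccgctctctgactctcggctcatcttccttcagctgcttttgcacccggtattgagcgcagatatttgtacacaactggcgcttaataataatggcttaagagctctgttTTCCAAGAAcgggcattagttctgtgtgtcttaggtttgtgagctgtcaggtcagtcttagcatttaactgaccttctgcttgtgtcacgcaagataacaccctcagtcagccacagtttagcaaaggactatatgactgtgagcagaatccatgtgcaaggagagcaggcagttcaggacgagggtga
Motifs were searched on both strands. TTCNNNGAA was found in 1 of the 8 member windows and in 8.30% of all 32851 windows, the interferon-stimulated response element (GAAA, any 2 bases, GAAA) in 0 and 3.44%, and the forkhead letters TGTTTAC in 0 and 3.65%. AANNGAAA, which lies within that element and was added after the longer element gave no match, was found in 4 of the 8 member windows (Pdcd1, Cd274, Pdcd1lg2 and the other Foxp3 window) and in 23.9% of all windows. A match is a run of letters and not a measured binding site. Lag3, Icos and Ido1 were not among the windows.

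Total gene counts ran from 15832837 to 18234406 in the shZdhhc17 libraries and from 16129825 to 19186615 in the shSCR libraries. Levels are given as CPM on TMM-normalized library sizes, and all 10 members passed the filter on low counts. The targeted gene Zdhhc17 ranged from 25.9 to 27.8 CPM in shZdhhc17 and from 32.4 to 34.2 CPM in shSCR libraries. Its log2 fold change was -0.33 ± 0.11 (SE, edgeR adjusted p = 0.383). shSCR replicate 3 stood apart from the other libraries, at 54.8 on the first principal component (47.8% of the variance) against -28.4 to 9.31, and its hepatocyte markers took 3.14% of the counts, against 5.96% to 7.15% in shZdhhc17 and 5.21% to 5.94% in the other shSCR libraries.

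All 10 members had a negative log2 fold change (shZdhhc17 minus shSCR), from -3.54 for Ido1 to -0.13 for Tigit, with a median of -1.06. Over all 15567 genes tested the median was 0.0017 and 49.7% were negative. None passed edgeR's quasi-likelihood test at an adjusted p of 0.05 over all genes (0 of 10 members, beside 0% of all genes). At an unadjusted p under 0.05, Lag3 and Ido1 were lower, 2 of 10 members beside 6.71% of all genes in that direction. By DESeq2, 1 of 10 members was called, Lag3, and limma voom called 0. DESeq2 called 0.439% of 24155 genes lower, a base that, unlike the members, includes genes too low for the edgeR filter. The libraries of the groups did not overlap for 1 of the 10, again Lag3, beside 9.62% of all genes without overlap and lower in shZdhhc17.

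The spread within shSCR was wide and shared by the members. shSCR replicate 3 was the highest of the 6 libraries for 9 members, with Pdcd1 the exception, and stood above every shZdhhc17 library for all 10. shSCR replicate 1 was the lowest shSCR library for all 10 members and lay below the shZdhhc17 mean for 9 of them, Lag3 being the exception. It lay below every shZdhhc17 library for Havcr2, Tigit and Ido1. On the shZdhhc17 side, replicate 1 was the lowest of all libraries for the other 7 members. Leaving out shSCR replicate 3 brought the median to -0.38, and leaving out shSCR replicate 1 brought it to -1.52.

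**Figure D1:**
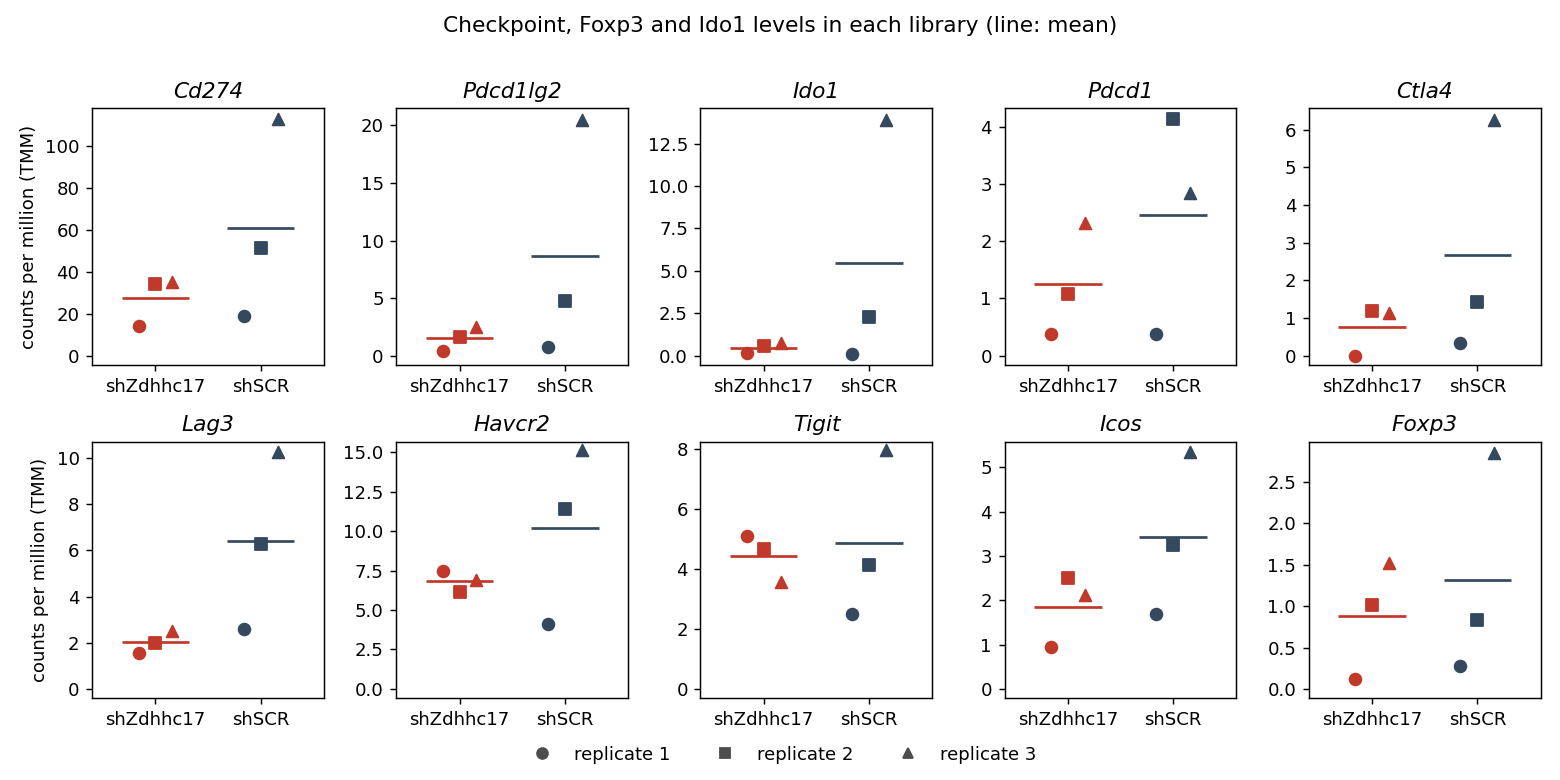
Levels of the 10 members in CPM on TMM-normalized library sizes, for 3 shZdhhc17 (left, red) and 3 shSCR libraries (right, dark blue) in each panel; symbols mark the replicate number and lines the group mean. In the shSCR libraries replicate 1 is the lowest point in every panel, and in 9 panels shSCR replicate 3 is the highest.

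The PD-1 ligand genes lay below 2 of the 3 shSCR libraries in every shZdhhc17 library. Cd274 (ENSMUSG00000016496.8), the gene of PD-L1, stood at 14.2, 33.9 and 34.8 CPM in replicates 1, 2 and 3 of shZdhhc17, against 18.8, 51.3 and 112.8 CPM in replicates 1, 2 and 3 of shSCR. The shZdhhc17 mean was 27.6 ± 11.7 CPM, and the shSCR mean 61.0 ± 47.7 CPM (SD over 3 libraries). The groups overlapped through shSCR replicate 1, and the difference did not pass (log2 fold change -1.14 ± 0.62, SE; edgeR adjusted p = 0.511). Pdcd1lg2 (ENSMUSG00000016498.11), the gene of PD-L2, stood at 0.377, 1.61 and 2.51 CPM in shZdhhc17 and at 0.763, 4.71 and 20.5 CPM in shSCR. Its log2 fold change was -2.53 ± 1.10 (SE, edgeR adjusted p = 0.441), and again only shSCR replicate 1 lay within the shZdhhc17 range. Without shSCR replicate 3 the log2 fold change was -0.34 for Cd274 and -0.88 for Pdcd1lg2. The highest shSCR library exceeded the lowest 26.8-fold for Pdcd1lg2 and 6.00-fold for Cd274.

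The ratio of the 2 ligand genes varied across libraries as well. There were 2.67, 4.75 and 7.20 Pdcd1lg2 counts per 100 Cd274 counts in replicates 1, 2 and 3 of shZdhhc17, against 4.06, 9.18 and 18.2 in replicates 1, 2 and 3 of shSCR. These rest on 6, 27 and 38 Pdcd1lg2 counts in shZdhhc17 and on 14, 90 and 367 in shSCR. The ratio was thus highest in the shSCR library with the most Cd274 and lowest in the shZdhhc17 library with the least, and the groups overlapped. It does not depend on library scaling.

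Ido1 (ENSMUSG00000031551.13) had the widest spread of the 10 over the shSCR libraries. It had 2, 9 and 11 counts in replicates 1, 2 and 3 of shZdhhc17 (0.126, 0.537 and 0.725 CPM), against 2, 44 and 249 counts in replicates 1, 2 and 3 of shSCR (0.109, 2.30 and 13.9 CPM). Exact Poisson intervals at 95%, which cover counting error only, ran from 219 to 282 counts for shSCR replicate 3 and from 0.242 to 7.22 for shSCR replicate 1, so counting alone does not span the range of 127-fold between them. The log2 fold change was -3.54 ± 1.38 (SE, edgeR adjusted p = 0.409) and was -1.38 without shSCR replicate 3. Ido1 counts per 100 Cd274 counts were 0.889, 1.58 and 2.08 in shZdhhc17, against 0.580, 4.49 and 12.3 in shSCR.

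Among the inhibitory receptors, Lag3 was the one member whose libraries separated. That is 1 of 10 members, close to the share of 9.62% over all genes in that direction. Lag3 (ENSMUSG00000030124.3), a receptor for MHC class II found on activated T and natural killer cells, stood at 1.57, 1.97 and 2.51 CPM in replicates 1, 2 and 3 of shZdhhc17, against 2.62, 6.28 and 10.3 CPM in replicates 1, 2 and 3 of shSCR. The gap between the nearest libraries, shZdhhc17 replicate 3 and shSCR replicate 1, was small. The log2 fold change was -1.66 ± 0.49 (SE, edgeR adjusted p = 0.341). In the authors' deposited table it was -1.64 with a q of 0.0497, and DESeq2 run here gave an adjusted p of 0.0497 as well. That DESeq2 call was lost without any one library except shSCR replicate 1, and its adjusted p then lay between 0.151 (shZdhhc17 replicate 1 left out) and 0.493 (shSCR replicate 3 left out). Without shSCR replicate 1, DESeq2 called 5 members lower, Lag3 (adjusted p = 9.52e-05), Ido1 (0.000191), Pdcd1lg2 (0.00454), Havcr2 (0.0179) and Cd274 (0.0287). In that fit 1.86% of 24165 genes were called lower, with genes too low for the edgeR filter included. On the same 5 libraries edgeR called 0 members. The DESeq2 fits without one library were chosen after seeing the data. Because shSCR replicate 1 was the lowest shSCR library for all 10 members, leaving it out raised the shSCR mean of each. The 5 calls are therefore no separate evidence of a difference, and DESeq2 called 0 members without any other one library.

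Pdcd1 (ENSMUSG00000026285.9), the PD-1 receptor gene of activated T cells, stood at 0.377, 1.07 and 2.31 CPM in shZdhhc17 and at 0.382, 4.13 and 2.85 CPM in shSCR. It was the member that peaked in shSCR replicate 2 (log2 fold change -0.97 ± 0.85, SE; edgeR adjusted p = 0.670). Its log2 fold change was -0.37 without that library and -1.74 without shZdhhc17 replicate 3. Ctla4 (ENSMUSG00000026011.14) had 0, 20 and 17 counts in shZdhhc17, against 6, 27 and 112 counts in shSCR. For the count of 0 in shZdhhc17 replicate 1 a floor of 3 counts (0.189 CPM) was set, and the exact 95% Poisson interval reaches 3.69 counts. In CPM the other libraries of Ctla4 stood at 1.19 and 1.12 in shZdhhc17, against 0.327, 1.41 and 6.25 in shSCR. The log2 fold change was -1.77 ± 1.17 (SE; edgeR adjusted p = 0.572), and -0.18 without shSCR replicate 3.

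Havcr2 (ENSMUSG00000020399.15), the TIM-3 gene of T cells and of myeloid cells, was even across shZdhhc17 libraries and uneven across shSCR. It stood at 7.49, 6.15 and 6.92 CPM in shZdhhc17, against 4.09, 11.4 and 15.1 CPM in shSCR (log2 fold change -0.57 ± 0.43, SE; edgeR adjusted p = 0.613), a log2 fold change that was -0.18 without shSCR replicate 3 and -0.95 without shSCR replicate 1. Tigit (ENSMUSG00000071552.6), whose product binds the poliovirus receptor, stood at 5.10, 4.66 and 3.56 CPM in shZdhhc17, against 2.51, 4.13 and 7.98 CPM in shSCR. All shZdhhc17 values of both genes lay within the shSCR range. For Tigit the log2 fold change was -0.13 ± 0.41 (SE, edgeR adjusted p = 0.916), and its sign turned without shSCR replicate 3 (0.42).

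Of the remaining T cell members, the costimulatory receptor gene Icos (ENSMUSG00000026009.15) stood at 0.943, 2.51 and 2.11 CPM in shZdhhc17, against 1.69, 3.24 and 5.36 CPM in shSCR (log2 fold change -0.88 ± 0.50, SE; edgeR adjusted p = 0.520), and its log2 fold change was -0.41 without shSCR replicate 3. Foxp3 (ENSMUSG00000039521.14), the transcription factor gene of regulatory T cells, had 2, 17 and 23 counts in shZdhhc17, against 5, 16 and 51 counts in shSCR. In CPM it stood at 0.126, 1.01 and 1.52 in shZdhhc17 and at 0.273, 0.837 and 2.85 in shSCR, so 2 of 3 shSCR libraries lay within the shZdhhc17 range. The log2 fold change was -0.57 ± 0.93 (SE; edgeR adjusted p = 0.833), and 0.65 without shSCR replicate 3. In the GENCODE vM21 annotation, 853 bases of Foxp3 exons are shared with Flicr on the same strand, and 590 and 266 bases with Ccdc22 and Ppp1r3f on the opposite strand. The library kit marks strand, but no source used here gives the strand setting of the counting, so it is uncertain which gene reads from the shared bases were counted for. For Cd274, 511 exon bases are shared with an antisense gene.

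Divided by exon length (kilobases of merged exons in GENCODE vM21, of another build than the counts), Cd274 had the highest mean level in both groups, 7.63 ± 3.23 CPM per kilobase for shZdhhc17 and 16.8 ± 13.2 for shSCR (SD over 3 libraries). Tigit came next, at 4.83 ± 0.860 in shZdhhc17 and 5.30 ± 3.06 in shSCR, and its range overlapped that of Cd274 in both groups. In shZdhhc17 Havcr2 followed (2.52 ± 0.246), apart from Tigit above it and from Lag3 below it (0.956 ± 0.222), whereas the ranges of neighbours from Lag3 down through Pdcd1lg2, Pdcd1, Icos, Ctla4, Ido1 and Foxp3 overlapped. In shSCR the order after Tigit was Pdcd1lg2 (4.41 ± 5.32), Havcr2, Lag3, Ido1, Pdcd1, Ctla4, Icos and Foxp3, and all neighbours overlapped. Foxp3 was the lowest in both groups, at 0.194 ± 0.154 CPM per kilobase in shZdhhc17 and 0.288 ± 0.296 in shSCR.

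**Figure D2:**
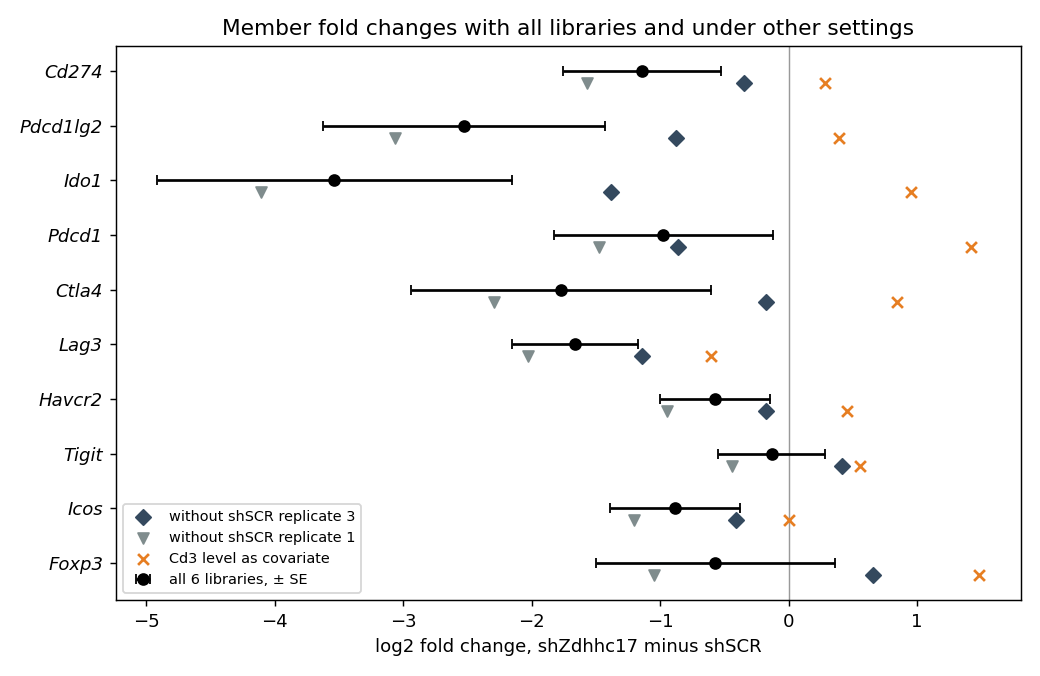
Log2 fold change (shZdhhc17 minus shSCR) of each member by edgeR, with all 6 libraries (black, bars are SE), without shSCR replicate 3 (diamonds), without shSCR replicate 1 (triangles) and with the Cd3 level as a covariate (crosses). With all libraries every point is below 0, without shSCR replicate 3 the points of Tigit and Foxp3 are above 0, and with the covariate those of all members except Lag3 are.

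T cell transcripts varied between the same libraries. In bulk tissue, fewer cells of a type and less RNA per cell cannot be told apart. Summed CPM of the 17 T cell markers ran from 18.1 to 36.9 in shZdhhc17 and from 24.5 to 87.3 in shSCR, with 24.5 in shSCR replicate 1. All 16 tested T cell markers had a negative log2 fold change (median -1.14), 3 of them at an unadjusted p under 0.05, Cd3g (-1.33 ± 0.54, SE), Cd8a (-2.43 ± 1.00) and Cd3d (-1.45 ± 0.62), and 0 passed (edgeR adjusted p from 0.419). Zap70, the most highly expressed of the list, had -0.21 ± 0.37. None of the markers was at 0 counts in any library. Counts of Cd3d, Cd3e and Cd3g, the chains that accompany the T cell receptor, summed to 38, 64 and 65 in replicates 1, 2 and 3 of shZdhhc17, against 50, 257 and 218 in replicates 1, 2 and 3 of shSCR.

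Per T cell transcript the members did not point one way, and the balance depended on the T cell genes used as the denominator. Tumour and myeloid cells can express Cd274 and Ido1, and myeloid cells Havcr2, so these ratios are not levels per T cell. With Cd3d, Cd3e and Cd3g, the median over the 10 members of the difference in mean log2 ratio (shZdhhc17 minus shSCR) was 0.29, with 6 members above 0 and 4 below. With Cd2, Cd5 and Lck, a denominator chosen after seeing the data, it was -0.13, with 3 members above 0 and 7 below. Over Cd3d, Cd3e and Cd3g, Ctla4 had -0.89, which includes a count of 0, and 0.60 without shZdhhc17 replicate 1. With that denominator some signs thus rest on 1 library. Havcr2 was the one member without overlap, with 313, 161 and 162 counts per 100 Cd3 counts in shZdhhc17, against 150, 84.8 and 124 in shSCR, a log2 difference of 0.78, but it overlapped with Cd2, Cd5 and Lck as the denominator (0.35). Tigit had 213, 122 and 83.1 counts per 100 Cd3 counts in shZdhhc17, against 92.0, 30.7 and 65.6 in shSCR (1.17), with overlap. Lag3, which separated in CPM, overlapped here, at 65.8, 51.6 and 58.5 in shZdhhc17 and 96.0, 46.7 and 84.4 in shSCR (-0.30). Over Cd2, Cd5 and Lck it did not overlap, at 37.9, 26.6 and 31.7 per 100 in shZdhhc17, against 56.5, 51.3 and 51.7 in shSCR (-0.73). The share of all genes without overlap in these ratios was not computed, so the members without overlap cannot be set beside it. The Cd3 sums themselves were lower in every shZdhhc17 library than in shSCR replicates 2 and 3.

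Foxp3 per Cd3 transcript was 5.26, 26.6 and 35.4 per 100 in shZdhhc17, against 10.0, 6.23 and 23.4 in shSCR, and per 100 Cd4 counts it was 6.67, 22.7 and 59.0, against 8.93, 12.9 and 48.1. Both ratios overlapped between the groups, and replicate 3 was highest in each group. Cd274 per 100 Cd3 counts was 592, 888 and 812 in shZdhhc17, against 690, 381 and 927 in shSCR, where its CPM spanned 18.8 to 112.8 in shSCR. With the mean Cd3 level as a covariate in edgeR, 9 of the 10 members had a positive log2 fold change, from 0.0055 for Icos to 1.48 for Foxp3, and Lag3 had -0.60 (adjusted p from 0.836 to 0.999). When the covariate was the hepatocyte marker level instead, 7 were positive.

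**Figure D3:**
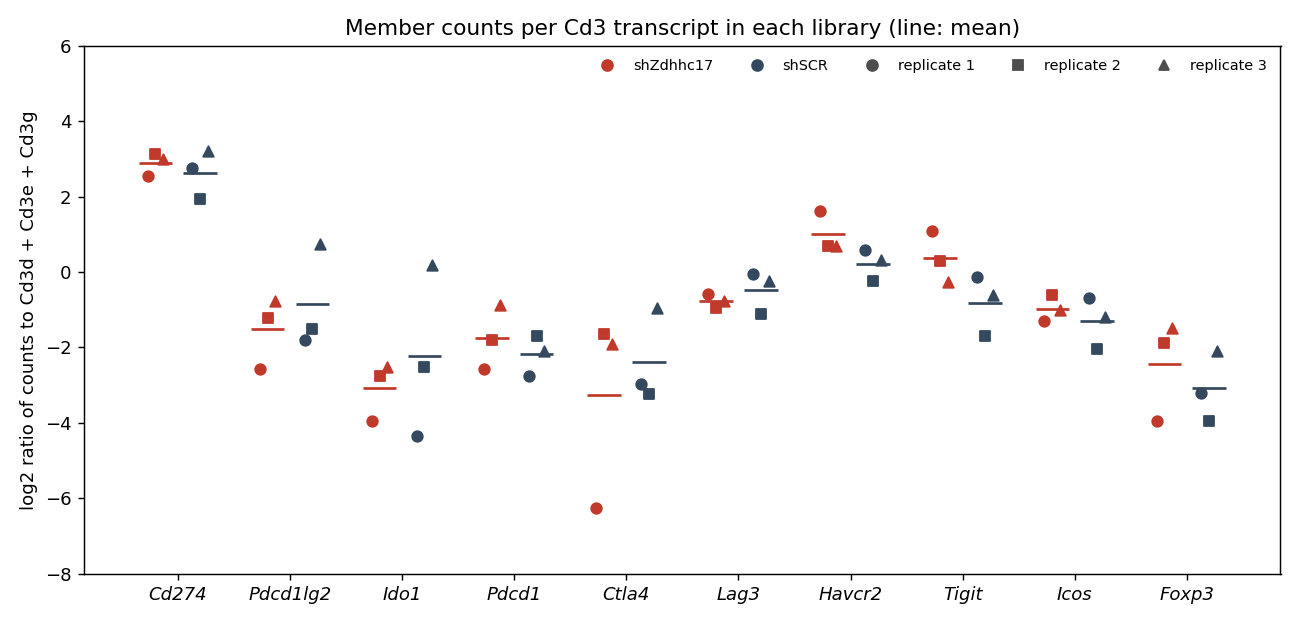
Log2 of each member's counts over the summed counts of Cd3d, Cd3e and Cd3g (0.5 added to both) in the 3 shZdhhc17 (red) and 3 shSCR libraries (dark blue); symbols mark the replicate number and lines the group mean. With this denominator Havcr2 is the only member whose red points all lie above the dark blue ones, and the lowest Ctla4 point is a count of 0.

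Other checkpoint genes were mixed in direction, while costimulatory genes were not. Of 17 tested genes in the list of other checkpoint receptors and ligands, 11 were negative and 6 positive (median -0.055), and 2 were lower at an unadjusted p under 0.05, the B7 family ligand gene Cd276 (-0.43 ± 0.17, SE) and the lymphocyte receptor gene Btla (-0.88 ± 0.37). Fgl1, a hepatocyte-secreted ligand of LAG-3 and the most highly expressed of the list, stood at 1172, 1572 and 1529 CPM in shZdhhc17, against 1527, 1185 and 584 CPM in shSCR. Its lowest library, shSCR replicate 3, is the one with the most Lag3 and the lowest hepatocyte share. All 9 tested costimulatory receptors and ligands were negative (median -0.93), with Tnfrsf9, the 4-1BB gene, at 12.6, 10.8 and 9.03 CPM in shZdhhc17 and 14.2, 24.0 and 44.1 CPM in shSCR (-1.34 ± 0.39), the ICOS ligand gene Icosl at -0.73 ± 0.27 and Cd40 at -1.32 ± 0.52. No gene of either list passed (edgeR adjusted p from 0.337).

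Of 10 tested genes in the list of other regulatory T cell genes, 8 were negative (median -0.13). The Helios gene Ikzf2, a transcription factor of regulatory T cells that other cells also express, stood at 7.36, 7.05 and 8.64 CPM in shZdhhc17, against 11.1, 12.4 and 14.6 CPM in shSCR. It did not overlap between the groups (-0.72 ± 0.18, SE; edgeR adjusted p = 0.307). Nt5e, the CD73 gene, stood highest in the list and had -0.13 ± 0.17. Il10, Ccr8, Ccr4 and Gpr83 were too low to be tested.

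The list of T cell activation and exhaustion factors held genes of either sign. Tox, a factor of exhausted T cells that is not restricted to them, stood at 5.35, 6.63 and 8.05 CPM in shZdhhc17, against 3.76, 2.67 and 2.06 CPM in shSCR, and was thus higher in every shZdhhc17 library (1.23 ± 0.29, SE; edgeR adjusted p = 0.307). Prdm1, the Blimp-1 gene, stood at 4.28, 7.17 and 5.01 CPM in shZdhhc17 and was higher in every shSCR library, at 10.5, 9.62 and 8.93 CPM (-0.82 ± 0.23; edgeR adjusted p = 0.329). Of the 12 genes tested, 9 were negative (median -0.28), and the most highly expressed, Nfatc1, had -0.12 ± 0.18. At an unadjusted p under 0.05, 4.72% of all genes were higher in shZdhhc17, as 1 of these 12 was.

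In the interferon gamma list, of 18 genes tested, 15 were negative (median -0.88), and 1 had an unadjusted p under 0.05. That was Jak2, a kinase of the interferon gamma receptor encoded on the chromosome of the PD-1 ligands, at 85.5, 88.3 and 96.9 CPM in shZdhhc17, against 138, 144 and 166 CPM in shSCR (-0.73 ± 0.13, SE; edgeR adjusted p = 0.307). Its shSCR libraries were alike where those of Cd274 were not. Psmb8, the most highly expressed, stood at 162, 165 and 201 CPM in shZdhhc17 and at 142, 232 and 407 CPM in shSCR (-0.56 ± 0.35). Ifng itself had 0, 6 and 5 counts in shZdhhc17, against 0, 11 and 58 counts in shSCR, and was too low to be tested. The 2 libraries with 0 Ifng counts were replicate 1 of each group. They were also the 2 lowest for Pdcd1, Cd274, Pdcd1lg2, Ctla4, Icos, Foxp3 and Ido1, but not for Lag3, Havcr2 or Tigit. The same 2 libraries had the lowest summed T cell markers as well, and the part of Ifng was not tested.

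The other enzymes of tryptophan breakdown did not follow Ido1. Of 11 tested, 9 were positive and 2 negative (median log2 fold change 0.24), with 0 at an unadjusted p under 0.05. Tdo2, the tryptophan dioxygenase of hepatocytes, stood at 299, 525 and 306 CPM in shZdhhc17, against 496, 232 and 73.0 CPM in shSCR. Qprt had 0.63 ± 0.30 and Kyat3 0.31 ± 0.32 (SE, edgeR adjusted p = 0.475 and 0.731). Hepatocyte marker levels were lowest in shSCR replicate 3, where Tdo2 was lowest as well, and their part in the result was not tested.

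Markers of other cell types differed in sign from list to list. Dendritic cell markers were negative for 10 of 11 genes (median -0.95). Of these, 4 had an unadjusted p under 0.05, Itgax (-1.40 ± 0.38, SE), Ccl22 (-1.31 ± 0.36), Cd209a (-1.19 ± 0.31) and Flt3 (-0.95 ± 0.37), while Fscn1, the most highly expressed, had 0.017 ± 0.23. All 7 tested natural killer markers were negative (median -0.87, with Gzmb at -1.17 ± 0.74 and Klrk1 at -1.19 ± 0.62), and their summed level was 5.85 to 22.6 CPM in shZdhhc17 and 7.25 to 47.1 CPM in shSCR. Macrophage markers had a median of 0.16 over 10 genes, with Mrc1 at 0.61 ± 0.16 and Marco at 1.71 ± 0.53 both higher in every shZdhhc17 library, and C1qa at -0.20 ± 0.19. Neutrophil markers had a median of 1.86 (7 of 8 positive, 6 of them at an unadjusted p under 0.05), with S100a9 at 258, 159 and 315 CPM in shZdhhc17 against 58.2, 123 and 28.1 CPM in shSCR. B cell markers (5 of 5 positive, median 0.43), endothelial markers (5 of 6 positive, median 0.21) and hepatocyte markers (8 of 8 positive, median 0.62) were on the higher side, and carcinoma epithelial markers (6 of 7 negative, median -0.69, with Krt19 at -0.92 ± 0.34) and fibroblast markers (5 of 6 negative, median -0.53, with Pdgfrb at -0.57 ± 0.15) on the lower. Over all genes, 6.71% were lower and 4.72% higher in shZdhhc17 at an unadjusted edgeR p under 0.05. The share of all genes higher in every shZdhhc17 library is not given here. No gene of these lists passed by edgeR, and the part of these cell types in the members' values was not tested.

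**Figure D4:**
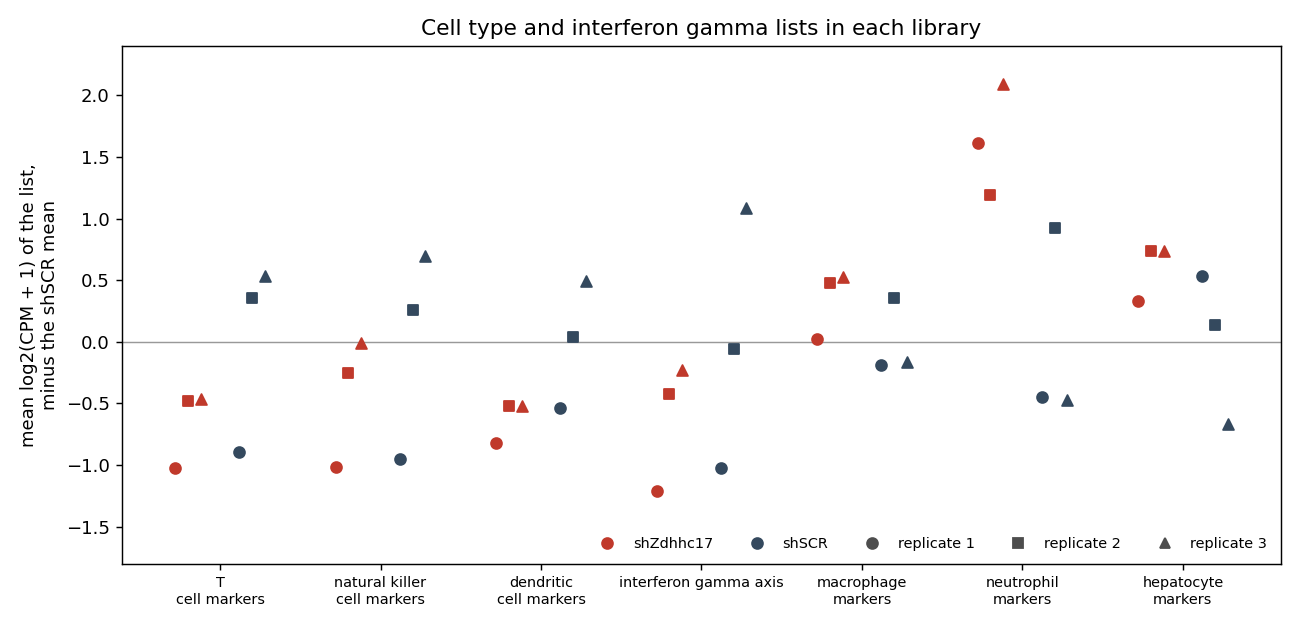
Mean log2(CPM + 1) of each gene list per library, minus the mean of the 3 shSCR libraries; red points are shZdhhc17 (left of each pair), dark blue points shSCR, and symbols mark the replicate number. T cell, natural killer, dendritic and interferon gamma lists are lowest in replicate 1 of both groups and highest in shSCR replicate 3.

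The genes whose profile over the 6 libraries was most like a member's are given as a description. They are the top 3 by Pearson correlation of log2(CPM + 1) among 13223 genes searched, each with a mean of at least 1 CPM. For Cd274 they were Ptpro, Batf2 and Cd5 (r = 0.997 each, n = 6 libraries), for Pdcd1lg2 Trafd1 (r = 0.999), Trim30a and Tnfrsf4 (r = 0.998 each), and for Ctla4 Idnk (r = 0.996), Cxcl10 (r = 0.995) and Gbp2 (r = 0.993). Lag3 was most like Otud5 (r = 0.997), Flt3 (r = 0.996) and Tomm34 (r = 0.995), and Foxp3 most like the natural killer receptor gene Ncr1 (r = 0.996), Mfsd12 (r = 0.994) and Tapbpl (r = 0.989). For Pdcd1 they were Rasgrp4 (r = 0.996), Grap2 (r = 0.993) and Syk (r = 0.990), for Havcr2 H2-D1 and Rtn4rl2 (r = 0.990 each) and Smim24 (r = 0.987), and for Tigit Cln6 (r = 0.995), Nfkb2 (r = 0.992) and Fbxl2 (r = 0.991). For Icos they were Apol9a (r = 0.998), Fam219a (r = 0.995) and Ptpro (r = 0.994), and for Ido1 Tle3 and Phf11b (r = 0.997 each) and Col6a2 (r = 0.996). The 6 libraries share their scaling, and shSCR replicate 3 carries much of the range. With 13223 genes searched over 6 libraries, a high r can be found for nearly any profile, so these values do not measure a relation between genes. In the authors' deposited enrichment table, 13 sets named for these pathways hold a member, all 13 with a negative normalized enrichment score and 0 with a q under 0.05. The sets were kept because they hold a member, and several share members such as Ctla4 or Ido1. Their common sign is therefore not independent of the members' own values. The tryptophan sets among the 13 hold Ido1 as their only member and had scores from -1.43 to -0.753. Of the tryptophan enzymes tested here besides Ido1, 9 of 11 were positive. The set of PD-1 signalling genes had a score of -1.60 (q = 0.180), the hallmark interferon gamma response -1.66 (q = 0.0821) and the CTLA-4 inhibitory signalling set -1.09 (q = 0.753), in the authors' deposited table.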

How the data were processed

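RNA of dissected liver metastases was sequenced in 6 libraries, 3 shZdhhc17 and 3 shSCR, grouped by sample title. The authors deposited raw counts per gene, whole numbers without normalization, on build GRCm39 with GENCODE vM30 symbols per the deposited column description. Per the submitters' processing notes the tools were HTSeq, STAR 2.6.1, DESeq2 1.34.0 and FastQC 0.11.8, with no order given. The authors also deposited DESeq2 log2 fold changes with p-values and q-values, and gene set enrichment scores.

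Counts were tested with edgeR 4.0.16 (robust glmQLFit, glmQLFTest, two-sided, TMM, filterByExpr, Benjamini-Hochberg adjustment over 15567 genes), with 4 residual degrees of freedom. SE is the log2 fold change over the root of F. DESeq2 1.42.0 and limma 3.58.1 (voom) were alternatives. The fits were tested on simulated data of 15567 genes. There edgeR recovered 27% of 2-fold and 81% of 4-fold changes, DESeq2 56% and 88%, and voom 23% and 81%. Unchanged genes called were 12 for edgeR, 48 for DESeq2 and 10 for voom. No batch is named in the labels, and 0 sample columns were left out. Samples with the same replicate number did not deviate together in every pair. No library was counted as a repeat, since the lowest chi-square per gene between libraries of a group was 14.9 (shZdhhc17 replicates 2 and 3).

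Members and lists were chosen with earlier results of these data known. Named besides the members are list genes with an unadjusted p under 0.05 (otherwise the 2 smallest), the most highly expressed gene of each list, the most alike genes, and a few genes chosen after their values were seen (Ifng and untested regulatory T cell genes). Some genes that this rule names in the marker lists are not printed. Klra8 had no row matched and was not analysed here. Intervals and floors cover counting error only. Another denominator for the ratios to T cell transcripts is not reported here.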

Additional observations from a re-analysis of the deposited data

How the results depend on the processing

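All 10 members kept a negative sign with DESeq2-type size factors, with library totals alone (which moved the median of all genes to -0.13), without a filter, with at least 10 counts in 3 libraries, without robust estimation, with DESeq2 and with the replicate block. edgeR called 0 genes; DESeq2 called 204 with 1 member (Lag3), edgeR without a filter 3, and edgeR with the Cd3 level as covariate 1. Without one library edgeR called 0 to 1 genes and 0 members, the median of the members ran from -1.54 to -0.38, and per Cd3 transcript from -0.068 to 0.48 (-0.13 over Cd2, Cd5 and Lck). With the Cd3 level as covariate the median turned to 0.51, with Pdcd1 at 1.42, Cd274 0.28, Pdcd1lg2 0.39, Ctla4 0.84, Havcr2 0.45, Tigit 0.56, Icos 0.0055, Foxp3 1.48 and Ido1 0.95. With the hepatocyte level it turned to 0.17, with Cd274 at 0.14, Pdcd1lg2 0.20, Ctla4 0.53, Havcr2 0.31, Tigit 0.80, Foxp3 1.00 and Ido1 0.056. The cause was not tested. Tigit also turned to 0.019 by limma voom and 0.0064 without shZdhhc17 replicate 3, and Tigit and Foxp3 to 0.42 and 0.65 without shSCR replicate 3 (ranges without one library -0.44 to 0.42 and -1.18 to 0.65). DESeq2 without each library, chosen after seeing the data, called 24 to 691 genes and 0 to 5 members. Same-numbered libraries deviated with correlations of -0.059, 0.32 and -0.046, which do not settle whether the numbers pair them. The replicate block gave a median of -0.89, 0 genes called and 1623 at an unadjusted edgeR p under 0.05, beside 1780 without it. Counts under 20, as for Pdcd1, Pdcd1lg2, Ctla4, Foxp3 and Ido1 in replicate 1 of each group, limit those values.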
